A study of Mus musculus with 12 samples.

Results

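Solute carriers are membrane proteins that move ions, nutrients, bile acids, drugs and metabolites into and out of cells and organelles, and this account covers the circular RNAs (circRNAs) made from their genes in mouse liver. A circRNA is a closed loop formed by back-splicing, in which the 3′ end of an exon is joined to the 5′ end of that exon or of one upstream. Reads across the joint, the back-splice junction, measure it. A circRNA was taken as a member when its ends lay inside a protein-coding gene of the GENCODE M21 annotation (GRCm38) named Slc plus a number, or Slco, with at least 1 end on an exon boundary of that gene. This gave 210 of 16445 circRNAs (1.28%), from 78 of the 385 annotated genes with such names (20.3%). Of the 210, 197 had both ends on boundaries and 13 had 1. The name also admits Slc4a1ap, with 4 circRNAs, which encodes an adaptor protein and not a transporter.

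The RNA came from whole livers of 12 mice. The labels name the strain C57BL/8 and state neither age nor genotype. All 12 received injections of 10% carbon tetrachloride (CCl4), which damages hepatocytes and leads to fibrosis, in a volume of 10 µl for each 10 g body mass, 2 injections weekly over 8 weeks. Control (6 mice) stands for CCl4 with no drug. PZH (6 mice) stands for CCl4 with Pien Tze Huang (PZH), a remedy of traditional Chinese medicine, dosed daily in weeks 2 to 8 as a 25 mg/ml preparation. No liver free of CCl4 was analysed here, so each comparison is of CCl4 plus PZH with CCl4.

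In hepatocytes, transporters of the Slco and Slc10 families on the blood-facing membrane take up bile acids, hormones and drugs. Mitochondrial carriers of the Slc25 family link the cytosol to the urea cycle and to fatty acid oxidation. The Slc30, Slc39 and Slc41 families carry metals such as zinc and magnesium, and the Slc35 family brings nucleotide sugars into the endoplasmic reticulum and Golgi. A circRNA from such a gene carries some of its exons but is a different molecule from the mRNA that encodes the transporter. Only junctions are described here: linear mRNA and protein were not analysed.

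The junction is what tells one circle of a gene from another, so the junctions of the 3 hosts on which the results turn are given first. Each sequence runs 5′ to 3′ across the back-splice on the strand of the gene, was joined from the exons of the GENCODE M21 transcripts, and assumes that both ends are the annotated exon ends. The last 15 bases of the last exon are in lower case and the first 15 bases of the first exon are in capitals.
Slc10a7 exons 2 to 5: tttggaagttttttgGACCACTGAAGCCAG
Slc10a7 exons 2 to 4: gttggtggaaatgagGACCACTGAAGCCAG
Slc10a7 exons 2 to 10: agtccctcaccttggGACCACTGAAGCCAG
Slc41a2 exons 9 to 10: gctgctgtgctgcagGGATCGGTGGCAATT
Slc41a2 exons 7 to 10: gctgctgtgctgcagAGACATATTATTACA
Slc41a2 exons 4 to 8: cgccagttatcaacgGTAAATGTTGGGAAG
Slc41a2 exons 4 to 6: tgtactcctgtcttgGTAAATGTTGGGAAG
Slco1b2 exons 4 to 8: gatatgtagacctgaATATTTTTGGCAGCC
Slco1b2 exons 5 to 8: gatatgtagacctgaGGAATTTGTTAGTTA
Slco1b2 exons 9 to 12: aaactgatgaatataGAAGTGTCCGCATAA
The Slc10a7 circles share the capitals, because all 3 start at exon 2, and differ only in the exon that is joined to it. Within Slc41a2, 2 circles share the lower-case end of exon 10 and 2 share the capitals of exon 4. Within Slco1b2, 2 circles share the lower-case end of exon 8. Reads over a shared part alone do not separate these circles, and only reads that reach into the other exon do.

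Values are a signal in SRPBM, the authors' unit, in which back-spliced reads are scaled to the sequencing depth. The libraries summed to 28922 to 41080 SRPBM, or 80442 to 130487 read-pair equivalents, a value divided by what appears to be the worth of 1 read pair in that library. Solute carrier circRNAs made up 1.06% ± 0.0923 of this signal with PZH and 1.07% ± 0.123 in Control (SD, n = 6 each), so the class as a whole took up the same share to within the spread between mice. They summed to 383 ± 59.8 SRPBM in PZH, with libraries from 312 to 460.2, and to 379 ± 77.1 in Control, with libraries from 278 to 453. Between 55 and 80 of the 210 were above 0 in a PZH library and between 42 and 84 in a Control library. A 0 was also given to some circRNAs that were abundant in other libraries, so 0 means listed at 0 here and does not mean that the circle was missing. Where a circle has such entries, library values replace the mean and SD.

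As RNA was from bulk liver, fewer cells of a type and less RNA per cell cannot be told apart. Among 12 hepatocyte host genes, 10 had circRNAs, which summed to 279.7 to 370.4 SRPBM in PZH and 232.5 to 405.9 in Control. Of this list, which includes the member host Slco1b2, the bile acid carrier Slc10a1 and the transthyretin gene Ttr had no row. Among 10 stellate cell host genes, 4 had circRNAs: Reln, Hgf, Dlc1 and Zeb2. These summed to 10.1 to 22.0 in PZH and 1.78 to 9.60 in Control, without overlap. The other 6, Col1a1 and Pdgfrb among them, had no row. Of all single host sums tested, 0.544% were higher with PZH without overlap, though a list pools several genes. Sums for macrophages were 40.6 to 65.7 and 34.0 to 54.1 (3 of 6 genes), for endothelial cells 25.0 to 37.7 and 31.2 to 54.9 (6 of 7), and for bile duct cells 63.9 to 90.9 and 51.3 to 86.3 (2 of 6). The bile duct sum came from Fgfr2 and Bicc1 alone, as Krt7, Krt19, Epcam and Spp1 had no row. These lists were chosen with earlier results known, and the part of cell makeup in any result below was not tested.

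Most solute carrier circles were rare. Of the 210, 85 (40.5%) were above 0 in a single library, 68 in 2 to 5 libraries, 57 (27.1%) in at least 6, and 15 (7.14%) in all 12. The same shares over all circRNAs were 44.2% for a single library, 23.5% for at least 6 and 6.62% for all 12. The signal lay in few genes: the 5 leading hosts, Slc10a7, Slco1b2, Slc4a4, Slc25a30 and Slc41a2, carried 58.9% of it, and Slc10a7 alone carried 27.8%. The most abundant member ranked 143rd among all circRNAs. A single circRNA was found for 40 of the 78 hosts, and 38 hosts had 2 or more.

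**Figure D1:**
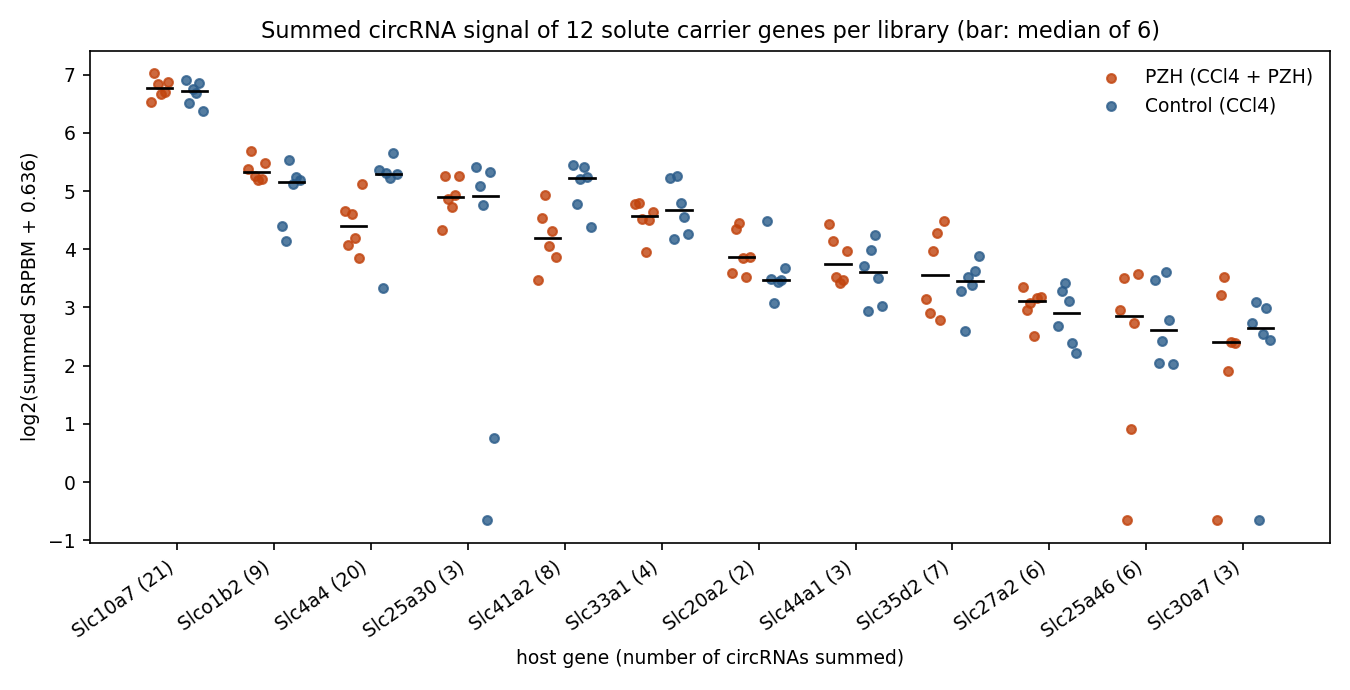
Summed circRNA signal of the 12 most abundant solute carrier hosts, as log2(summed SRPBM + 0.636), in 6 PZH livers (CCl4 + PZH) and 6 Control livers (CCl4). Each point is a library, the bar is the median of 6, and numbers in brackets count the circRNAs summed; the Slc41a2 points sit lower in PZH (10.4 to 29.9 SRPBM) than in Control (20.2 to 42.8) with some overlap, and those of Slc10a7 at about the same height.

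Hosts were put into cargo classes by family number, not by the cargo of each protein. The class of organic anions, organic cations and bile acids led with 39.2% of the members' signal, from 39 circRNAs of 9 hosts. Most of this was Slc10a7, which alone held 27.8% of the members' signal and whose protein is not tied to bile acid uptake. Carriers of inorganic ions followed with 14.9% (45 circRNAs of 15 hosts, the Slc4a1ap circRNAs counted here by name), then those of fatty acids, choline and acetyl-CoA with 12.04% (15 of 4 hosts) and mitochondrial carriers with 10.5% (22 of 7 hosts). Metal carriers held 9.76% (25 of 9 hosts), nucleotide sugar carriers 5.91% (17 of 7 hosts) and amino acid carriers 3.63% (25 of 13 hosts). Amino acid carriers thus had more hosts than the organic anion group and a much smaller share of the signal. Sugar carriers (8 circRNAs of 5 hosts), vitamin carriers (2 of 2 hosts) and nucleoside carriers (1 circRNA) had no circRNA above 0 in 6 libraries.

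Of 22 transporters known from hepatocytes, listed after the members were known, 15 had a circRNA (68.2%) and 7 had no row in the table. The share over all annotated solute carrier genes was 20.3%. Because the list was chosen with the members known, these shares do not measure an enrichment. Among the 7 were the bile acid carrier Slc10a1, the organic anion carrier Slc22a7, the glucose carrier Slc2a2 and the citrate carrier Slc13a5. Slco1a1, an organic anion carrier, had 1 circRNA above 0 in 1 library, and so had Slco2b1, Slc47a1, Slc38a3 and Slc40a1. Slc25a15 and Slc16a1 were above 0 in 3 libraries and Slc27a5 in 4. The signal per host in this list was highest for Slco1b2, at a mean of 36.3 SRPBM over 12 libraries, followed by Slc27a2, a very long chain fatty acid transport protein, at 7.32, and Slco1a4 at 5.17.

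In build the circles were close to the circRNAs of the whole table, with more starts at exon 2. Of the 197 with both ends on exon boundaries, 66 (33.5%) started at exon 2, against 24.4% of all 15737 such circRNAs, and none started at exon 1, against 13 of all. The median number of annotated exons between the ends was 3 in both. There were 53 circles of 2 exons (26.9%, as among all), 47 of 5 or more (23.9% against 27.1%) and 6 of a single exon (3.05% against 3.98%). The median length of annotated exon between the ends was 406 bases (140 to 1436) against 418 over all circRNAs. The median genomic span was 6302 bases, from 140 to 191363, against 6235. The median intron before the first exon was 6833 bases against 5566.5, and the one after the last exon 5282 against 4426. Coding sequence alone lay between the ends of 84.3% of members and 87.2% of all circRNAs, and 28 members (14.2%, against 10.9%) took in some 5' UTR. These are descriptions, since circles of 1 gene share ends and are not independent.

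**Figure D2:**
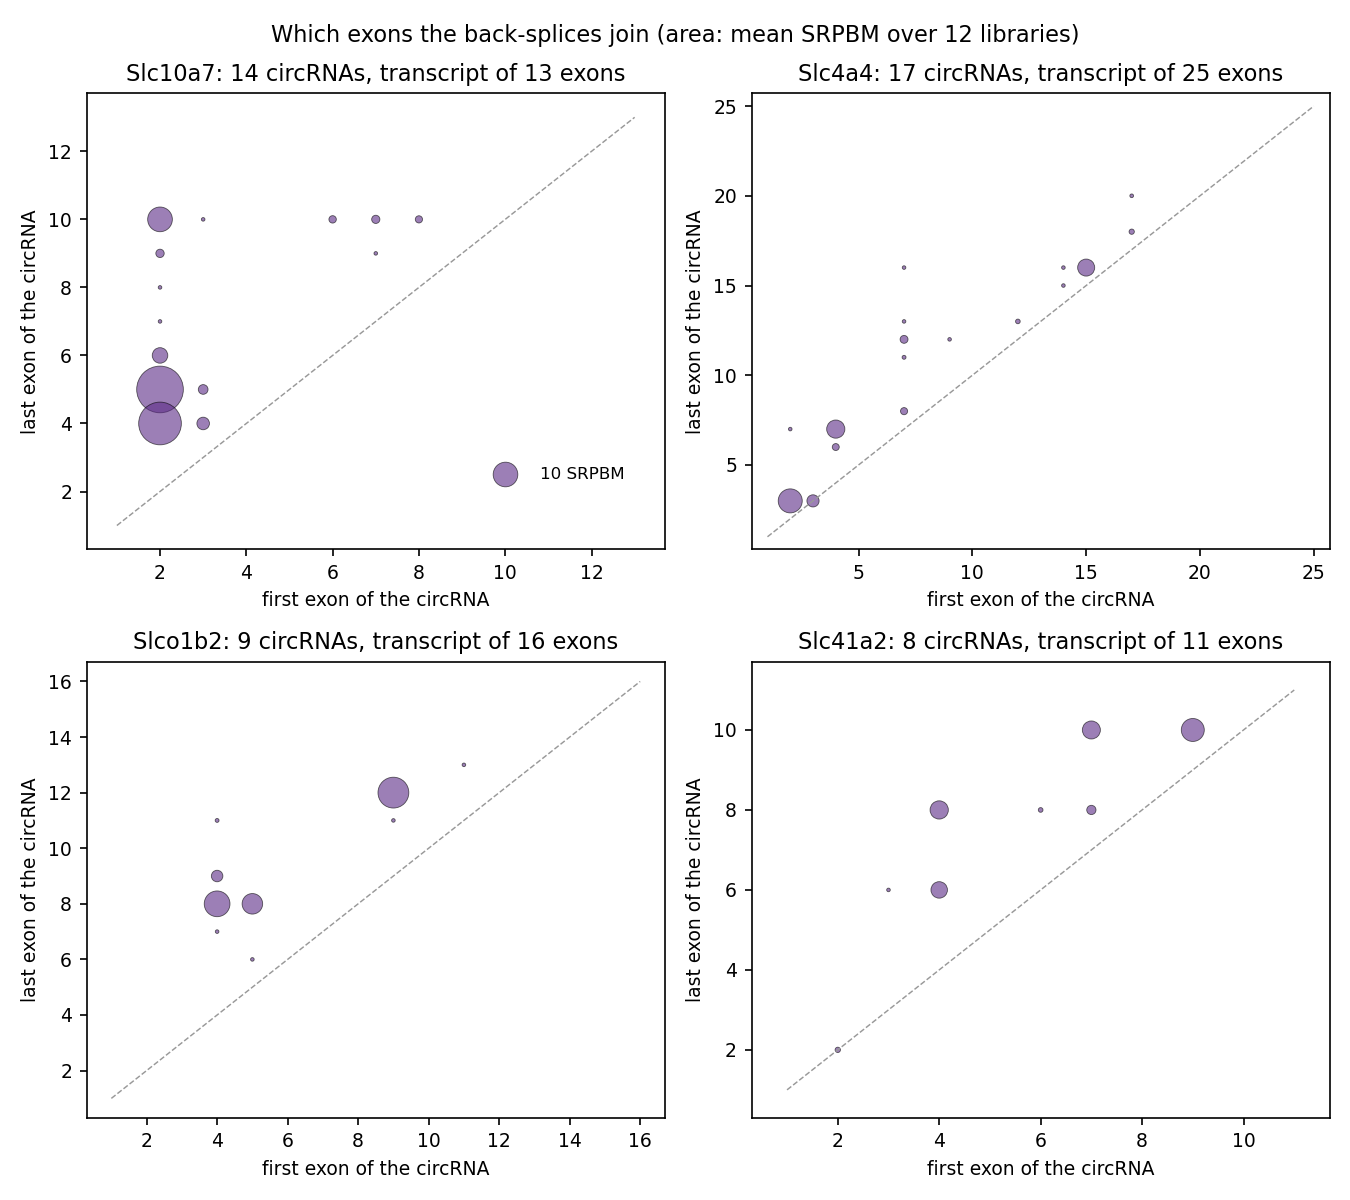
First exon (x axis) and last exon (y axis) of the circRNAs with both ends on exon boundaries, for 4 hosts; circle area gives the mean SRPBM over 12 libraries, with a minimum size for the rarest, and the dashed line marks single-exon circles. Slc10a7 circles stack above exon 2, whereas those of Slc4a4 lie along the gene.

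When PZH was added to CCl4, no solute carrier circRNA passed the test. Of the 57 members above 0 in at least 6 libraries, from 29 hosts, 0 had an adjusted p under 0.05 in limma, where 2 of all 3870 circRNAs tested did (0.0517%). The smallest adjusted p of a member was 0.454. At an unadjusted p under 0.05, 3 of the 57 were higher with PZH (5.26%, against 4.55% of all tested) and 3 were lower (5.26%, against 3% of all), and an exact rank-sum test also gave 0 adjusted and 3 and 3 unadjusted. These 3 and 3 are near the background and so are no result about solute carriers as a class. Without Control replicate 6 the lower count was 5. In none of the 57 did the 6 libraries of one group all lie above the other 6, against 0.491% of all circRNAs higher and 0.181% lower with PZH. None had values above 0 in 5 or more PZH libraries with no more than 1 Control library (0.904% of all) or the reverse (0.568% of all). The log2 fold change was above 0 in 31 of 57 members (54.4%, against 54.3% of all), with a median of 0.05 against 0.06. The remaining 153 members were too rarely above 0 to be tested.

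**Figure D3:**
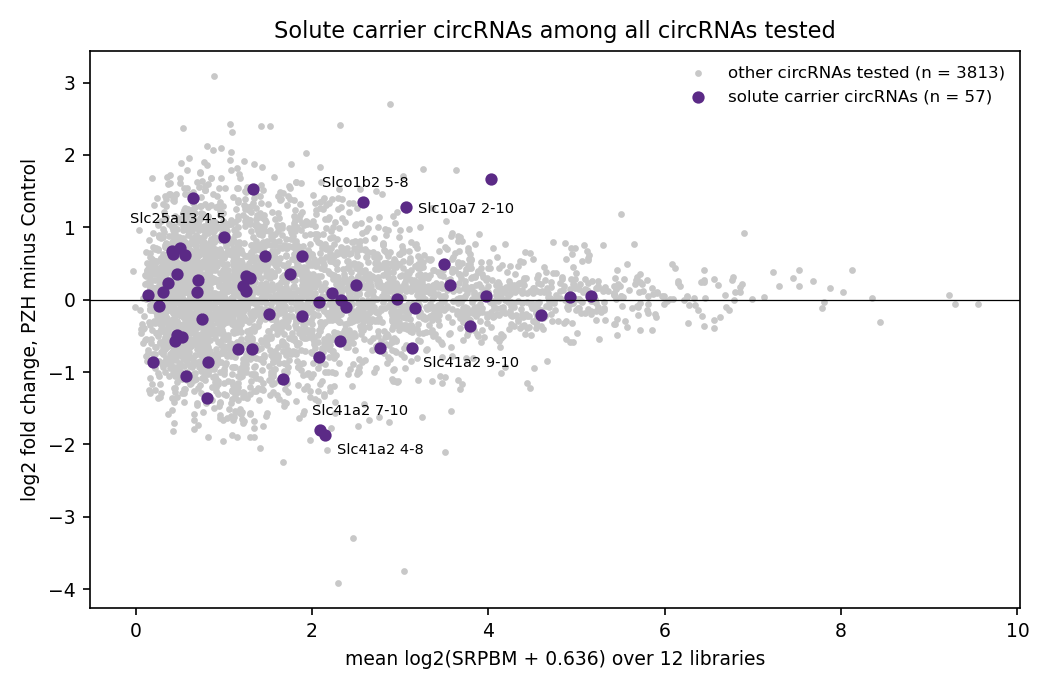
Log2 fold change (PZH minus Control) against mean log2(SRPBM + 0.636) over 12 libraries for the 57 solute carrier circRNAs tested (purple) and the other 3813 circRNAs tested (grey); the 6 members with an unadjusted p under 0.05 are labelled. The purple points spread as the grey ones do at the same level.

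Summed over each gene, 35 of the 78 hosts could be tested, and none passed: 0 had an adjusted p under 0.05 in limma, as was so for all 2204 host genes tested (0%). The exact rank-sum test also gave 0. At an unadjusted p under 0.05, none of the 35 was higher with PZH (5.08% of all hosts) and 2 were lower, Slc41a2 and Slc7a2 (5.71%, against 3.09% of all hosts). The lower count was 1 when PZH replicate 3 or Control replicate 1, 3 or 4 was left out, and the higher count was 2 without Control replicate 5 and 1 without PZH replicate 1, 4 or 5 or any other Control library. The log2 fold change was above 0 in 20 of 35 hosts (57.1%, against 54.8% of all), with a median of 0.09 against 0.06 over all hosts. No sum had groups that did not overlap, against 0.544% of all hosts higher and 0.318% lower, and none had values above 0 in 5 or more PZH libraries with no more than 1 Control library (0.454%).

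Among the genes of the Slco and Slc10 families, Slc10a7 was the main source of solute carrier circles. Its protein is related by sequence to the bile acid carriers of the Slc10 family but lies in the Golgi and has been tied to calcium handling and to glycan building in bone, not to bile acid uptake. The 21 circRNAs of this gene (chromosome 8, plus strand, a transcript of 13 exons) summed to 109 ± 13.4 SRPBM with PZH and 103 ± 14.02 in Control (SD, n = 6 each), a log2 fold change of 0.09 (SE 0.12, 95% interval -0.17 to 0.35, limma). Of the 21, 12 started at exon 2 and carried 91.5% of the gene's signal, and 5 ended at exon 10. In Slc10a7 the choice thus lay mainly in where the circle ended.

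The Slc10a7 circRNA of exons 2 to 5 (78515586 to 78578757), the most abundant of all members, was at 33.4, 32.8, 35.5, 31.6, 41.1 and 43.1 SRPBM in PZH replicates 1 to 6. In Control replicates 1 to 6 it was at 42.3, 30.6, 28.1, 42.6, 43.0 and 26.1. The highest values of the groups were almost the same, while Control replicates 2, 3 and 6 lay below all PZH libraries. The log2 fold change was 0.05 (SE 0.17). The circle of exons 2 to 4 (78515586 to 78531158) averaged 30.5 ± 5.34 with PZH and 29.6 ± 3.25 in Control, or 0.03 as a log2 fold change (SE 0.17), which was below 0 with both other scalings tried. The log2 ratio of these 2 circles was 0.26 ± 0.27 with PZH and 0.24 ± 0.37 in Control (SD, n = 6 each). Their proportion differed by 0.02 (SE 0.24, 95% interval -0.49 to 0.54), less than the spread between mice.

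The Slc10a7 circle of exons 2 to 10 (78515586 to 78706948), which takes in 9 annotated exons, was one of the 3 members on the higher side at an unadjusted p under 0.05. It was at 12.7, 12.98, 11.6, 9.52, 9.16 and 21.5 SRPBM in PZH. In Control it was at 2.98, 5.54, 15.6, 0, 8.27 and 10.9. Most PZH libraries were above most Control libraries, but Control replicates 3 and 6 lay among them. On the log2 scale the difference was 1.28 (SE 0.56, limma adjusted p = 0.605), and 0.67 without Control replicate 4, the library listed at 0.

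A further Slc10a7 junction joined the start of exon 2 to position 78589249, which lies on no annotated exon boundary. That position is inside intron 5, 10492 bases beyond the end of exon 5, and 3 circRNAs with different starts (exons 2, 3 and 5) ended there. The circle from exon 2 was at 9.07, 24.3, 9.61, 10.2, 12.2 and 8.89 SRPBM in PZH and at 19.1, 10.1, 16.5, 16.4, 18.8 and 11.6 in Control. PZH replicate 2 was the highest of all 12, while the other 5 PZH libraries lay below 4 of the 6 Control libraries. On the log2 scale the difference was -0.36 (SE 0.27, adjusted p = 0.771), and -0.57 without PZH replicate 2. With 43.6 read-pair equivalents per library on average, this unannotated end was as well covered as many annotated ones.

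Slco1b2 encodes the mouse organic anion transporter of the hepatocyte's blood-facing membrane, which takes up bile acids, bilirubin and drugs such as statins. Its 9 circRNAs (chromosome 6, plus strand, a transcript of 16 exons) summed to 41.2, 51.1, 37.6, 35.8, 36.1 and 43.9 SRPBM in PZH and to 20.4, 17.1, 45.5, 34.1, 37.4 and 35.8 in Control. Control replicates 1 and 2 were low, and the other 4 lay within or close to the PZH range. The log2 fold change of the sum was 0.43 (SE 0.22, limma adjusted p = 0.621).

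The Slco1b2 circles did not have like values. That of exons 9 to 12 (141663578 to 141672313) averaged 16.0 ± 4.90 SRPBM with PZH and 15.3 ± 4.41 in Control (SD, n = 6 each), giving a log2 fold change of 0.05 (SE 0.26) that was -0.06 without PZH replicate 4. That of exons 5 to 8 (141652443 to 141657606) was at 5.34, 14.7, 7.33, 6.27, 10.0 and 13.8 in PZH and at 2.83, 0, 3.07, 9.45, 6.43 and 4.17 in Control. All 6 PZH libraries stood above 4 of the Control libraries, with Control replicates 4 and 5 in the PZH range. In limma this was 1.35 on the log2 scale (SE 0.53, 95% interval 0.25 to 2.45, adjusted p = 0.566), and 0.84 without Control replicate 2. The circle of exons 4 to 8 (141648489 to 141657606), which has the same end, was at 12.2, 18.7, 18.8, 0, 9.53 and 12.96 in PZH and 6.73, 4.35, 18.9, 6.01, 9.79 and 12.97 in Control. Its log2 fold change of -0.11 (SE 0.62) was 0.64 without PZH replicate 4, so that the single entry at 0 set its sign.

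Slco1a4, a related uptake carrier for organic anions and digoxin, had a circle of exons 7 to 8 (141830704 to 141834727) that was in each library either listed at 0 or at 6.28 SRPBM or more. It was at 0, 11.1, 8.08, 0, 9.36 and 14.04 SRPBM in PZH and at 0, 6.28, 8.56, 0, 0 and 0 in Control. It had values above 0 in 4 of the PZH and 2 of the Control libraries, for a log2 change of 1.53 (SE 0.96, adjusted p = 0.718). The 3 circRNAs of Slco1a4 summed gave 1.60 (adjusted p = 0.690). With zeros as missing these were 0.47 for the circle and 0.57 for the sum. Slco1a4 lies in a cluster of similar genes, so reads could be shared with a paralog, and how the authors placed such reads is not given in the sources used here.

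**Figure D4:**
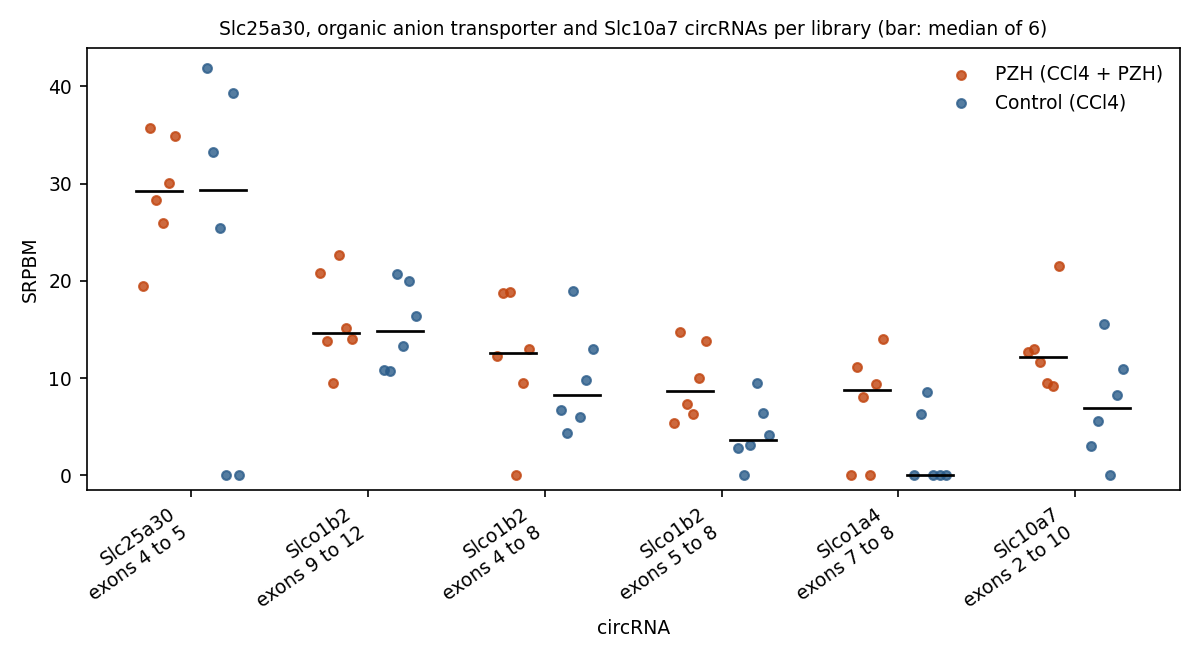
SRPBM per library of 6 circRNAs of Slc25a30, Slco1b2, Slco1a4 and Slc10a7 in 6 PZH and 6 Control livers; the bar is the median of 6. Slc25a30 has 2 Control points at 0 and the other 10 between 19.5 and 41.9, and Slco1b2 exons 4 to 8 has 1 PZH point at 0.

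Metal carriers held all 3 members with an unadjusted p under 0.05 on the lower side, and all 3 came from Slc41a2. Slc41a2 encodes a magnesium transporter. Its 8 circRNAs (chromosome 10, minus strand, a transcript of 11 exons) summed to 10.4, 22.6, 29.9, 16.0, 19.3 and 14.01 SRPBM in PZH replicates 1 to 6. In Control replicates 1 to 6 they summed to 42.8, 26.8, 36.2, 41.8, 37.2 and 20.2. The means were 18.7 ± 6.91 with PZH and 34.2 ± 8.92 in Control (SD, n = 6 each). PZH replicates 2 and 3 reached into the range of Control replicates 2 and 6, and the other Control libraries stood above all PZH libraries. In limma this was -0.88 on the log2 scale (SE 0.25, 95% interval -1.40 to -0.36), with the smallest p of any solute carrier host. Its adjusted p of 0.262 in limma did not pass the threshold. Over 24 alternative settings the fold change stayed between -1.03 and -0.73 and the adjusted p between 0.0929 and 0.562. None of these settings treats an entry at 0 of a single circle inside the sum as missing. The circles of exons 4 to 8 and exons 7 to 10 had such entries in PZH and none in Control.

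The 3 Slc41a2 circles with an unadjusted p under 0.05 end at exon 8 or exon 10. That of exons 4 to 8 (83281370 to 83304375) was at 0, 5.43, 5.49, 1.24, 0 and 4.77 SRPBM in PZH and at 8.83, 7.77, 6.28, 10.1, 11.6 and 4.45 in Control. Control replicate 6 was the only Control library inside the PZH range. In limma this was -1.87 on the log2 scale (SE 0.60, 95% interval -3.13 to -0.62, adjusted p = 0.454). That of exons 7 to 10 (83254783 to 83283869) was at 0, 7.13, 4.26, 1.96, 2.93 and 0 in PZH and at 9.33, 9.56, 9.60, 11.0, 6.02 and 2.48 in Control. Again most Control libraries were above the PZH range, with Control replicates 5 and 6 inside it. Its log2 fold change was -1.80 (limma adjusted p = 0.485). When entries at 0 were treated as missing, these became -0.94 and -0.88 for the 2 circles.

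The Slc41a2 circle of exons 9 to 10 (83254783 to 83256142), with no entry at 0, averaged 6.71 ± 2.64 SRPBM with PZH and 10.7 ± 2.34 in Control (SD, n = 6 each). PZH replicate 3, at 11.6, was the only PZH library above 6.90, while 5 of the Control libraries were at 9.60 or more. On the log2 scale the difference was -0.66 (SE 0.31, limma adjusted p = 0.624). The circle of exons 4 to 6 (83297154 to 83304375), named after its values were seen, differed less: 4.54 ± 2.20 with PZH and 4.43 ± 2.43 in Control, for a log2 fold change of 0.09 (SE 0.46). The log2 ratio of exons 9 to 10 over exons 4 to 6, the 2 circles of this gene with most signal among those above 0 in all 12 libraries, was 0.61 ± 0.62 with PZH and 1.45 ± 0.92 in Control. That difference of -0.85 (SE 0.42, limma adjusted p = 0.484) did not pass the test, so a difference in response between circles of this gene was not shown. Without Control replicate 5 it was -0.52. The circles of Slc41a2 are not independent measurements of PZH, since they come from the same gene in the same mice.

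**Figure D5:**
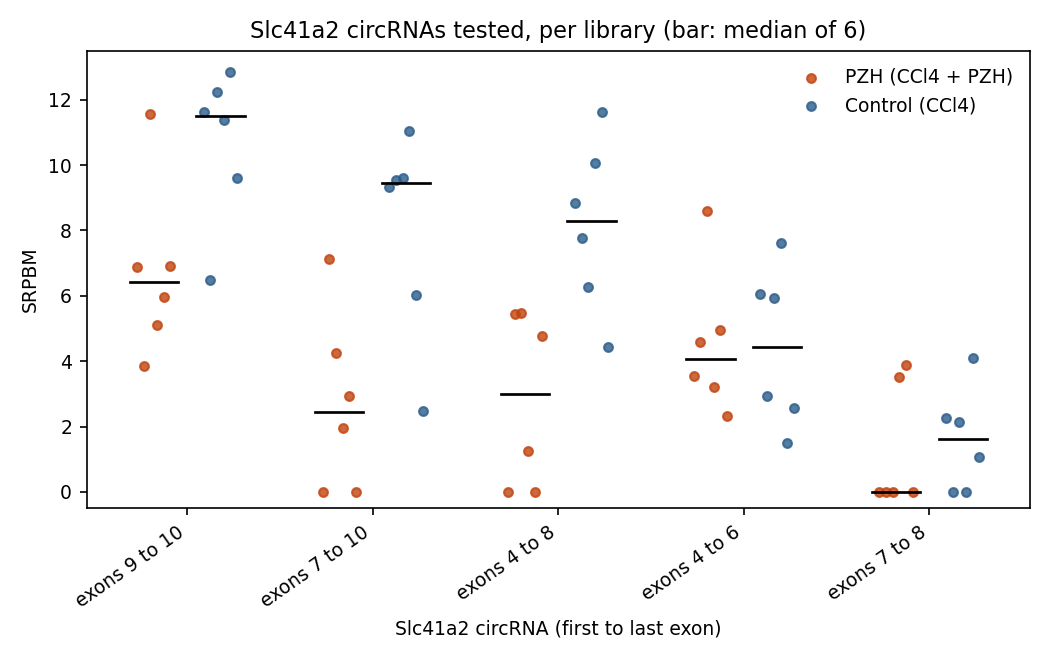
SRPBM per library of the 5 Slc41a2 circRNAs tested, in 6 PZH and 6 Control livers, by first and last exon; the bar is the median of 6. Points for exons 9 to 10, 7 to 10 and 4 to 8 sit lower in PZH with overlap, and those for exons 4 to 6 cover the same range.

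Inorganic ion carriers had 12 members tested, none with an unadjusted p under 0.05, and 6 with a log2 fold change above 0. Slc4a4, which encodes the electrogenic sodium bicarbonate cotransporter, had 20 circRNAs (chromosome 5, plus strand, a transcript of 25 exons), spread along the gene and not stacked on 1 start. They summed to 24.6, 16.2, 23.7, 17.6, 13.8 and 34.3 SRPBM in PZH and to 40.7, 9.48, 39.1, 36.7, 49.97 and 38.4 in Control. Control replicate 2 was the lowest of all 12, and the other 5 Control libraries were above every PZH library. The gene's most abundant circle, of exons 2 to 3, was looked up after the sums were seen. It was listed at 0 in PZH replicate 2 and Control replicate 2. Otherwise it was at 3.84 to 11.4 SRPBM in PZH and 8.75 to 21.2 in Control. On the log2 scale the difference of the sums was -0.62 (SE 0.32, limma adjusted p = 0.632). It was -0.96 with an adjusted p of 0.222 without Control replicate 2. The summed signal of all members was also lowest in that library. The log2 ratio of the Slc4a4 circles of exons 4 to 7 and exons 15 to 16 was 0.67 ± 0.60 with PZH and -0.23 ± 0.92 in Control (SD, n = 6 each). It differed by 0.91 (SE 0.41, limma adjusted p = 0.419), at an unadjusted level reached by 6.79% of the 221 hosts with such a ratio on the higher side and 4.52% on the lower. This was the only one of the 3 solute carrier hosts in that comparison with an unadjusted p under 0.05, and it kept that level only when PZH replicate 6 or Control replicate 1 or 4 was the library left out. Their adjusted p-values were 0.419 to 0.971, so none passed.

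The rare Slc4a4 circle of exons 4 to 6 had values above 0 in 2 of the PZH and 4 of the Control libraries and reached 1.02 and 3.69 SRPBM at most (log2 fold change -0.86, SE 0.54). Slc20a2, a sodium-dependent phosphate carrier, had an abundant circle of exons 2 to 5 (chromosome 8, 22535019 to 22545600) that takes in part of the 5' UTR. It was at 10.7, 16.5, 18, 11.3, 9.82 and 12.3 SRPBM in PZH and 12.3, 10.5, 7.75, 8.5, 8.57 and 6.85 in Control. PZH replicates 2 and 3 stood clear of all Control libraries and the others lay within or at the edge of the Control range, with a log2 fold change of 0.49 (SE 0.26, limma adjusted p = 0.686).

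Mitochondrial carriers gave 1 of the 3 higher members. Slc25a13 encodes citrin, the aspartate-glutamate carrier that feeds the urea cycle. Its circle of exons 4 to 5 (chromosome 6, 6131629 to 6152523) was at 2.75, 4.03, 2.90, 0, 2.32 and 2.00 SRPBM in PZH and at 0, 0, 2.03, 0, 1.17 and 0 in Control. It had values above 0 in 5 of the PZH and 2 of the Control libraries, for a log2 change of 1.41 (SE 0.63, limma adjusted p = 0.614). With zeros as missing it was 0.62, and the unadjusted p was under 0.05 in 13 of 23 alternative settings. The mean over 12 libraries, zeros included, was 4.53 read-pair equivalents. All 7 circRNAs of Slc25a13 summed gave 0.99 (SE 0.67, adjusted p = 0.709), a value looked up after the circle was named.

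Slc25a30 encodes a carrier of the mitochondrial inner membrane, and its circle of exons 4 to 5 (chromosome 14, 75770171 to 75771533) is 1 of the 3 most abundant members. The junction is shown because a circle of 82.5 read-pair equivalents on average was listed at 0 in 2 libraries.
Slc25a30 exons 4 to 5: actgatgttttgaaaGATTGCACCCGCAAT
Lower case marks the end of exon 5 and capitals the start of exon 4. It was at 19.5, 35.7, 28.3, 25.9, 30.0 and 34.9 SRPBM in PZH and at 41.9, 33.2, 25.4, 0, 39.3 and 0 in Control. The 4 Control libraries above 0 (25.4 to 41.9) reached higher than the PZH libraries (19.5 to 35.7), and the medians of the groups were 29.2 and 29.3. The fitted log2 fold change of 1.66 (SE 0.87, limma adjusted p = 0.686) was -0.26 when entries at 0 were treated as missing, so its sign and size rest on Control replicates 4 and 6. Without Control replicate 4 or 6 it was 0.89, and without a filter on low values its adjusted p in limma was 0.000739, the one setting in which a member passed. The 3 circRNAs of Slc25a30 summed gave 1.45 (adjusted p = 0.648), 0.63 without Control replicate 4 and 0.91 without Control replicate 6.

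Carriers of fatty acids, choline and acetyl-CoA had 4 members tested, 2 with a log2 fold change above 0 and none with an unadjusted p under 0.05. Slc33a1 encodes the acetyl-CoA transporter of the endoplasmic reticulum, and its circle of exons 2 to 6 (chromosome 3, 63943222 to 63954004) averaged 22.2 ± 4.14 SRPBM with PZH and 26.4 ± 8.39 in Control (SD, n = 6 each). Its log2 fold change was -0.21 (SE 0.22). Slc44a1 encodes a choline transporter, and its circle of exons 2 to 3 (chromosome 4, 53481464 to 53491530) averaged 12.6 ± 4.52 with PZH and 10.7 ± 2.85 in Control, for a log2 fold change of 0.20 (SE 0.29). Leaving out single libraries moved the Slc33a1 value between -0.31 (without Control replicate 2) and -0.10 (without PZH replicate 4 or Control replicate 1). The Slc44a1 value was 0.058 without PZH replicate 1, 0.093 without Control replicate 2, 0.11 without Control replicate 6 and 0.35 without PZH replicate 5. Both log2 fold changes were smaller than their SE.

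Nucleotide sugar carriers had 6 members tested, 5 with a log2 fold change above 0 and none with an unadjusted p under 0.05. The most abundant, exons 5 to 9 of Slc35d2 (chromosome 13, 64104733 to 64113001), which encodes a carrier of nucleotide sugars in the Golgi, averaged 8.08 ± 4.24 SRPBM with PZH and 7.47 ± 2.55 in Control (SD, n = 6 each). Its log2 fold change was 0.01 (SE 0.38), with a sign that turned in 9 of 24 alternative settings. Among mono- and dicarboxylate carriers, the circle of exons 2 to 3 of Slc16a10 (chromosome 10, 40076564 to 40080807), a carrier of aromatic amino acids and thyroid hormones, ran from 4.15 to 4.69 SRPBM in PZH and from 2.43 to 8.07 in Control. The PZH libraries thus lay within a narrow band inside the Control range, and the log2 fold change was -0.10 (SE 0.38). The circRNAs of Slc16a7, a monocarboxylate carrier, summed to 4.11, 3.59, 3.40, 1.86, 0 and 1.67 in PZH and to 0, 0, 0, 5.65, 0 and 1.11 in Control. They had values above 0 in 5 of the PZH and 2 of the Control libraries, although Control replicate 4 was the highest of all 12. On the log2 scale the difference was 1.23 (SE 0.71, adjusted p = 0.666), and 0.043 with zeros as missing, so that its size lay in which libraries were listed at 0.

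Amino acid carriers had 4 members tested, 1 with a log2 fold change above 0, and none with an unadjusted p under 0.05. Slc7a11 encodes the cystine-glutamate exchanger that supplies cysteine for glutathione. Its circle of exons 2 to 6 (chromosome 3, 50417988 to 50438915) was at 0, 0, 0, 3.48, 1.85 and 0 SRPBM in PZH and at 3.91, 3.84, 5.76, 8.62, 0 and 0 in Control. It had values above 0 in 2 of the PZH and 4 of the Control libraries (log2 fold change -1.36, SE 0.79, limma adjusted p = 0.703). With zeros as missing it was -0.88. The 3 circRNAs of Slc7a11 summed gave -1.56 (adjusted p = 0.648). Slc38a10, a member of the neutral amino acid carrier family, had a circle of exons 7 to 10 at 0.680, 0, 4.90, 0, 0 and 0 in PZH and 3.47, 2.16, 4.71, 0, 3.27 and 0 in Control. Here the highest value belonged to PZH replicate 3 while the other 5 PZH libraries were at or near 0 (log2 fold change -1.06, SE 0.72, adjusted p = 0.736). With zeros as missing it was -0.54.

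Slc7a2 encodes a cationic amino acid carrier that takes up arginine. No single circle of it was above 0 in 6 libraries, but its 5 circRNAs together were, in just 6, so that the sum could not be tested without any of those 6. They summed to 3.30 SRPBM in PZH replicate 3 and were listed at 0 in the other 5 PZH libraries. In Control they summed to 5.04, 0, 3.45, 3.32, 3.63 and 2.12. Slc7a2 was thus above 0 in 1 PZH and 5 Control libraries, a pattern of at least 5 in Control and at most 1 in PZH that 0.544% of all hosts showed, with a log2 fold change of -1.79 (SE 0.67, 95% interval -3.18 to -0.39). Its adjusted p in limma was 0.538. The sum entered the test mainly through Control, and with 1 PZH library above 0 it could not be fitted with zeros as missing. The sums above 0 were low, from 2.12 to 5.04 SRPBM, where the libraries' smallest values for a junction had a median of 0.636. Slc38a4, a neutral amino acid carrier of liver, had a circle of its exon 10 alone (chromosome 15, 97008863 to 97009138). It ranged from 0 to 5.64 in PZH and 0 to 5.47 in Control, giving a log2 fold change of 0.31 (SE 0.74).

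Of vesicular and phosphate-type anion carriers, 1 circle was tested, that of exons 6 to 8 of Slc17a5 (chromosome 9, 78557457 to 78560806), which encodes the sialic acid carrier of lysosomes. It was at 3.18, 3.41, 1.61, 1.55, 0 and 0 SRPBM in PZH and at 5.43, 0, 6.10, 2.51, 3.79 and 0.771 in Control. Control replicates 1, 3 and 5 lay above all PZH libraries, and the other Control libraries lay within the PZH range. The log2 change was -0.67 (SE 0.74, limma adjusted p = 0.867). It was -1.11 without Control replicate 2, -0.42 without Control replicate 3, -0.38 without PZH replicate 5 or 6 and -0.37 with zeros as missing.

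Depth limited the statements for most circles. The 57 members tested had 2.11 to 111.7 read-pair equivalents per library on average, with a median of 8.32, 29 of them had fewer than 10, and 23.5% of their entries were listed at 0. Standard errors of log2 fold changes ran from 0.17 for the 2 most abundant Slc10a7 circles to 0.96 for the Slco1a4 circle. An adjusted p above the threshold does not show that a circle did not change.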

How the data were processed

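Liver circRNAs of 12 mice (6 PZH, 6 Control) were taken from 1 table of SRPBM, a signal that the authors deposited per junction. Per the submitters' processing notes, Trim Galore and STAR were used with GRCm38 (mm10). Not given in the sources used here are their versions, the circRNA caller and the exact formula of SRPBM. Whole reads could not be recovered: 56.8% to 63.8% of low values per library lay near whole multiples of a step that puts the smallest value at 2 steps. The worth of 1 step gave the read-pair equivalents.

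Hosts and exons were assigned here from GENCODE M21. Groups came from the sample titles. limma 3.58.1 (R 4.3.3, variance trend) was fitted to log2(SRPBM + 0.636), the pseudocount being the median of the libraries' smallest values, for all circRNAs above 0 in at least 6 of 12 libraries. The fit was 2-sided, Benjamini-Hochberg adjusted over all tested, with a threshold of 0.05. Fold changes of circRNAs and host sums are those of log2(SRPBM + 0.636). The pseudocount shrinks changes between low values above 0. Entries at 0 can enlarge a fold change instead, as for Slc25a30 exons 4 to 5: 1.66, against -0.26 with zeros as missing. Host sums were fitted likewise. Without the trend or a pseudocount, so was the log2 ratio, per host, of the 2 circRNAs with the highest mean among those above 0 in all 12 libraries. The limma fit was tested on simulated circRNA values, and the rank-sum test on a case with a known p. In the simulation 86.3% of 4-fold changes, 39.8% of 2-fold changes and 0.109% of unchanged circRNAs passed the threshold. It did not list abundant circles at 0, as the real values do, and so does not test the fit for such circles. The p-values measure the spread between these mice. Bases beside the splice sites were not analysed here.

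Members and lists were chosen with earlier results of these data known. Named circRNAs were the 10 most abundant, the 6 with the smallest p in each direction, the most abundant tested of each cargo class, the circRNAs of the host with most circRNAs that were above 0 in all libraries, and 4 host sums in each direction. Alternatives were other pseudocounts, filters, scalings, weights, a replicate block, a rank-sum test, leaving out each library and, added after seeing the data, zeros as missing. Samples with the same number did not deviate together (r from -0.0464 to 0.0163), and the main fit did not pair them. With many entries at 0, such values of r do not exclude a pairing. Python 3.11.15, pandas 2.3.3, numpy 2.4.6, scipy 1.17.1 and matplotlib 3.10.9 were used.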

Additional observations from a re-analysis of the deposited data

Results flagged for a closer look

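In each group of 6, a library was marked when its gap to the nearest other, over the group's whole range, exceeded Dixon's 95% critical value. This held in 6 of 62 groups (9.68%). The critical value marks about 1 in 20 groups of independent, normally distributed values, which these are not. Many entries are at 0, some items were chosen by their p, and host sums hold circles also examined alone. The share therefore cannot be read as an excess. The Slc10a7 circRNA from exon 2 to position 78589249 was at 24.3 SRPBM in PZH replicate 2, with the other PZH libraries at 8.89 to 12.2. The Slc10a7 circle of exons 2 to 10 was at 21.5 in PZH replicate 6, with the others at 9.16 to 12.98. The Slc38a10 circle of exons 7 to 10 was at 4.90 in PZH replicate 3, with the others at 0 to 0.680. Summed Slc7a2 circRNAs were at 3.30 in PZH replicate 3 and listed at 0 in the other 5. Summed Slc16a7 circRNAs were at 5.65 in Control replicate 4, with the others at 0 to 1.11. Summed Slc4a4 circRNAs were at 9.48 in Control replicate 2, with the others at 36.7 to 49.97.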

How the results depend on the processing

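No result with an adjusted p changed side of the threshold except 1. Without a filter on low values, the Slc25a30 circle of exons 4 to 5 had an adjusted p of 0.000739, making 1 member past the threshold, with 5 members and 1 host sum higher at an unadjusted p under 0.05. With circRNAs above 0 in all 12 libraries only, 0 members were higher and 1 member and 1 host sum lower. With the replicate block, 1 host sum was higher, 3 were lower, 4 members were higher and 2 lower, and no call passed adjustment. With zeros as missing, 6 members were lower. With ratios from hosts with circRNAs above 0 in at least 10 libraries, 0 solute carrier ratios were higher. Leaving out single libraries gave 2 to 4 members higher and 2 to 5 lower, 0 to 2 host sums higher and 1 to 3 lower, and 0 to 1 ratio higher and 0 to 1 lower. The direction of some named log2 fold changes turned. That of Slc35d2 exons 5 to 9 was -0.00095 with the smaller pseudocount while median-of-ratios scaling gave -0.029 for it and -0.0093 for Slc10a7 exons 2 to 4, and scaling to equal SRPBM totals gave -0.034 and -0.015. With zeros as missing, Slc25a30 exons 4 to 5 was at -0.26, Slco1b2 exons 4 to 8 at 0.64 and Slc38a4 exon 10 at -0.17. Leaving out single libraries gave ranges of -0.028 to 0.11 for Slc10a7 exons 2 to 5, -0.043 to 0.097 for exons 2 to 4, -0.057 to 0.18 for Slco1b2 exons 9 to 12, -0.34 to 0.64 for its exons 4 to 8, -0.20 to 0.27 for Slc35d2, -0.26 to 0.038 for Slc16a10, -0.055 to 0.73 for Slc38a4 and -0.057 to 0.12 for the Slc10a7 ratio. The cause was not tested, save that the unfiltered fit, the fit on all 12 libraries and the fit with zeros as missing differ in which entries they hold.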
